A study of Mus musculus with 4 samples.

Results

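Genes that mark infiltrating and alternatively activated macrophages were followed in RNA of the injured spinal cord. They were chosen by name, with earlier results of these data known, and their rows were taken from the deposited table at both time points. They are MRC1, LYZ2, CD68, ADGRE1, F13A1, MS4A7, CHIL3 and FABP5, written in capitals as the table spells mouse symbols. All 8 were among the 14123 genes listed on a single row at 7 days post injury (dpi). At 21 dpi, 5 of the 8 were among 11470 such genes, namely LYZ2, ADGRE1, MS4A7, CHIL3 and FABP5, and the other 3 were not listed in the table used here. Of all genes listed at 7 dpi, 23.0% were not listed at 21 dpi.

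The study compared male mice that carry the human ApoE3 or the human ApoE4 coding region in place of the mouse gene, known as targeted replacement mice. They were adult mice of 3 to 5 months when a mid-thoracic contusion of 50 kdyne, an incomplete spinal cord injury, was made under isoflurane. RNA came from a cord segment at the lesion site, and the groups were ApoE3 at 7 dpi, ApoE4 at 7 dpi, ApoE3 at 21 dpi and ApoE4 at 21 dpi. The question was how the lesion transcriptome differs by ApoE genotype at each time. All mice lacked mouse ApoE, and neither uninjured cord nor mice with the mouse gene were analysed here. Each group stood for 3 mice by the study's methods, but the table holds a single pooled value per gene and group.

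Values are FPKM (fragments mapped to a gene, scaled to transcript length and library size). A ratio is the log2 of FPKM plus 1 in ApoE3 over FPKM plus 1 in ApoE4, so a negative ratio means a higher value in ApoE4. Because 1 is added, differences between low values come out too small. A gene is said to pass 1.3-fold when FPKM plus 1 differs by at least that factor. With 1 value per group there was no spread between mice, so no difference below has a replicate check and none was tested. How many reads a value rests on is unknown. The table names its comparison as ApoE3 versus ApoE4, whereas the numbering of its sample columns puts ApoE4 in front. The named order was used, and under the other reading every genotype direction given here would be the opposite. Whether there were more macrophages or more RNA per macrophage cannot be told apart in RNA of whole tissue.

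After a contusion, monocytes enter the cord from blood and become macrophages that take up myelin debris beside resident microglia. Macrophages exposed to IL-4 or IL-13 signal through STAT6 and make CHIL3 and MRC1, a state called alternative activation. LYZ2, CD68 and ADGRE1 are made by most mouse macrophages and also by microglia, whereas F13A1 and MS4A7 are more typical of monocyte-derived and border-associated macrophages.

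The segments held the transcripts of injured cord. At 7 dpi MBP of oligodendrocytes was at 120571 FPKM in ApoE3 and 127575 in ApoE4, and SNAP25 of neurons at 3366 and 2545. LYZ2, at 4522 FPKM in ApoE3 and 6076 in ApoE4, was above SNAP25 in both genotypes. The monocyte genes CCR2, at 12.7 FPKM in ApoE3 and 12.8 in ApoE4, and LY6C2, at 37.0 and 38.9, were listed at 7 dpi. The microglial gene FCRLS was at 230 and 301 FPKM at that time. Transcripts typical of monocytes and of microglia were thus both present, and the cell that made each transcript of LYZ2, CD68 or ADGRE1 was not measured. Of the alternative activation genes chosen beside the 8, RETNLA, MGL2 and CD163 were not listed at either time.

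**Figure D1:**
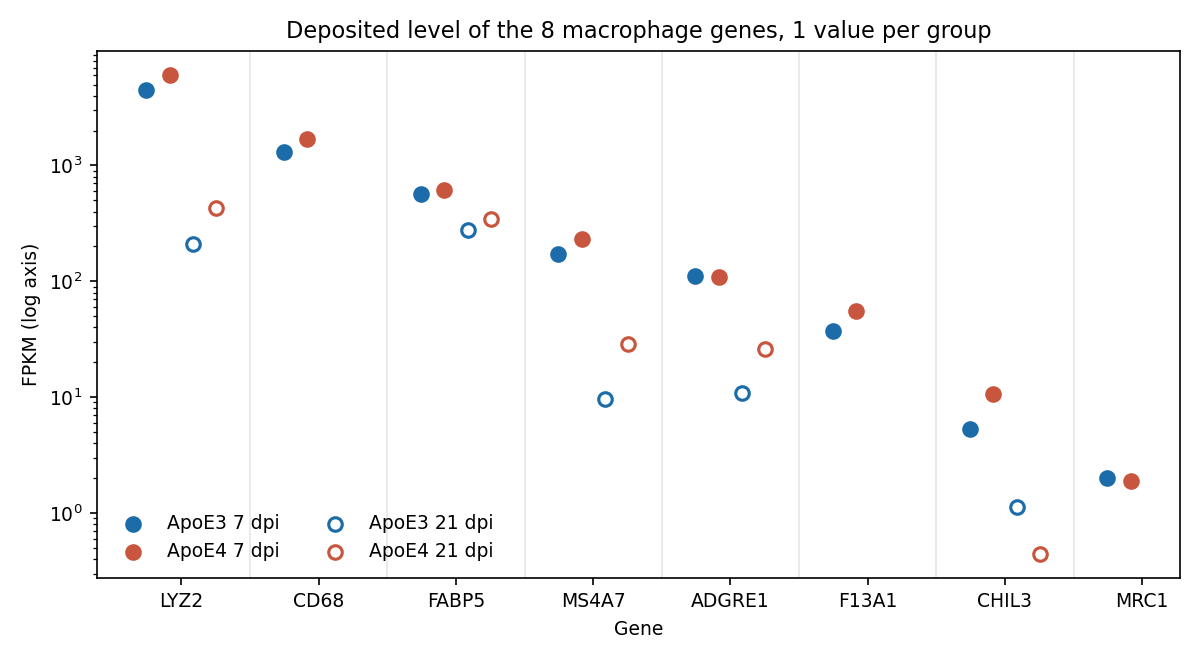
FPKM of the 8 macrophage genes on a log axis, 1 point per group, in blue for ApoE3 and red for ApoE4, filled at 7 dpi and open at 21 dpi. LYZ2 is highest at 7 dpi, at 4522 and 6076 FPKM, MRC1 is lowest, at 2.02 and 1.88, and the open points of the 5 genes listed at 21 dpi lie below their filled points.

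At 7 dpi the lysosomal and surface genes of macrophages were abundant in both genotypes. LYZ2, the myeloid lysozyme that cleaves bacterial cell walls, was at 4522 FPKM in ApoE3 and 6076 in ApoE4. It ranked 16 from the top of 14123 genes in ApoE3 and 7 in ApoE4. CD68, a heavily glycosylated protein of the lysosome membrane, was at 1309 FPKM in ApoE3 and 1696 in ApoE4, ranks 126 and 87. ADGRE1, the adhesion receptor detected by the F4/80 antibody, was at 111 FPKM in ApoE3 and 109.6 in ApoE4. Thus LYZ2 and CD68 were higher in ApoE4 while ADGRE1 was nearly level between genotypes. The log2 ratio was -0.43 for LYZ2, a 1.34-fold difference, and -0.37 for CD68, which at 1.295-fold fell just short of 1.3-fold. That of ADGRE1 was 0.02. LYZ2 per unit of ADGRE1 therefore came to 40.8 in ApoE3 and 55.5 in ApoE4, as a ratio of FPKM. At 21 dpi the order of the genotypes was the opposite, 19.6 in ApoE3 and 16.5 in ApoE4.

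Genes of monocyte-derived and border-associated macrophages were both higher in ApoE4 at 7 dpi. F13A1, the catalytic subunit of coagulation factor XIII, which crosslinks fibrin, was at 36.9 FPKM in ApoE3 and 55.4 in ApoE4. MS4A7, a membrane protein with several spans, was at 172 FPKM in ApoE3 and 231 in ApoE4. Both passed 1.3-fold, with log2 ratios of -0.58 for F13A1 and -0.42 for MS4A7. Relative to ADGRE1, F13A1 was at 0.332 in ApoE3 and 0.506 in ApoE4, and MS4A7 at 1.55 and 2.11, or 0.884 and 1.11 at 21 dpi.

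The alternative activation genes were low in level at 7 dpi and did not move as one. CHIL3, a secreted chitinase-like protein also called Ym1, was at 5.30 FPKM in ApoE3 and 10.6 in ApoE4. MRC1, the mannose receptor CD206, was at 2.02 FPKM in ApoE3 and 1.88 in ApoE4, with 4.91% and 4.31% of listed genes lower. CHIL3 was thus higher in ApoE4, and MRC1 was close to level at a low value. The log2 ratio was -0.89 for CHIL3 and 0.07 for MRC1. Only 51 of 14123 genes had a lower ratio than CHIL3.

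FABP5, a cytosolic carrier of fatty acids, is made by lipid-loaded macrophages and by other cells too. At 7 dpi it was at 571 FPKM in ApoE3 and 613 in ApoE4, with a log2 ratio of -0.10. Its level was thus high, above 96.9% of listed genes in ApoE3, with little difference by genotype.

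Over the 8 genes at 7 dpi, 6 had a higher value in ApoE4 and 2, ADGRE1 and MRC1, in ApoE3. CHIL3, F13A1, LYZ2 and MS4A7 passed 1.3-fold in ApoE4, which is 4 of 8 beside 4.76% of all listed genes. None of the 8 passed it in ApoE3, beside 3.78% of listed genes. The median log2 ratio was -0.40 over the 8 and 0.0020 over all 14123 genes. The order of the levels, from LYZ2 through CD68, FABP5, MS4A7, ADGRE1, F13A1 and CHIL3 to MRC1, was the same in ApoE3 and ApoE4.

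**Figure D2:**
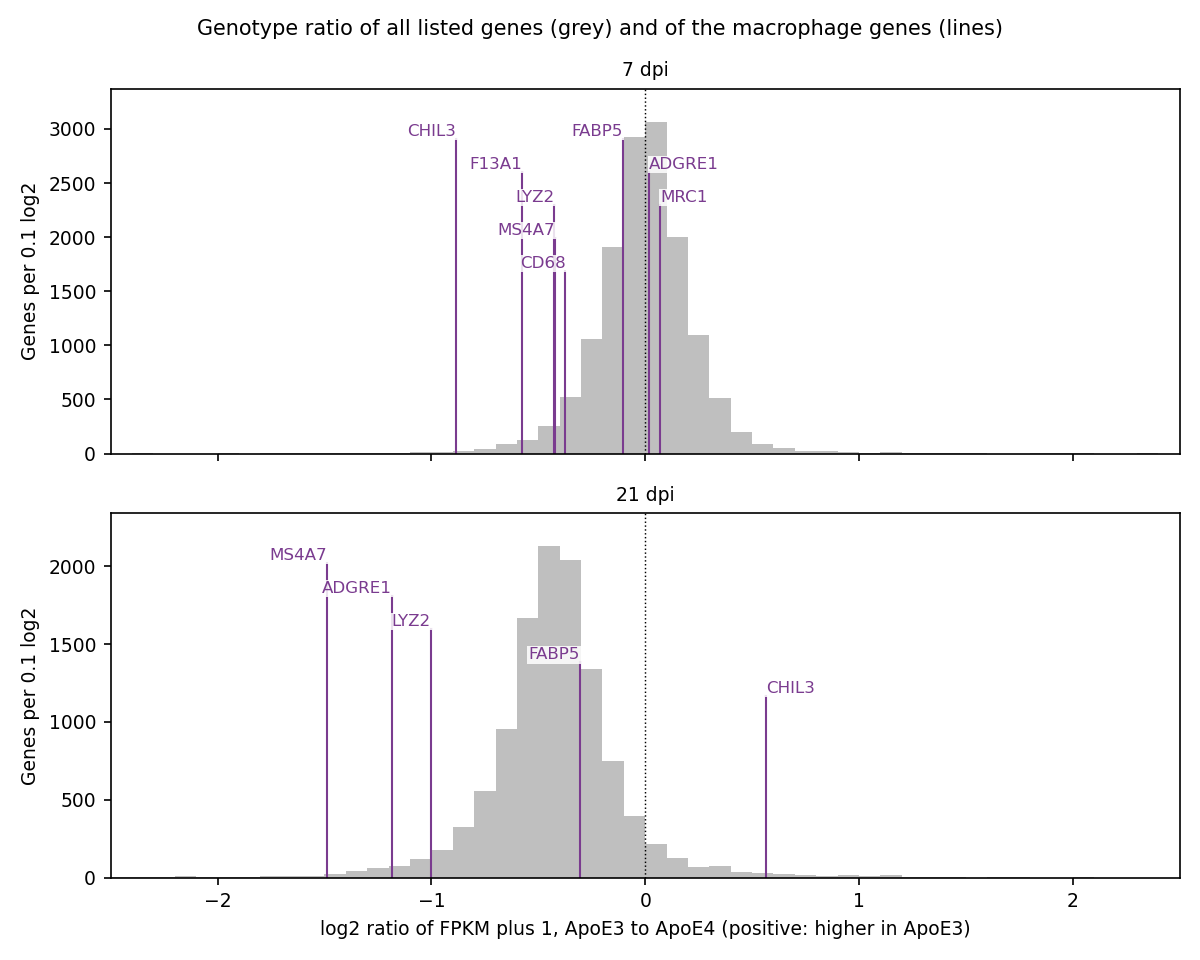
Number of listed genes per 0.1 log2 (grey bars) by log2 ratio of ApoE3 to ApoE4 at 7 dpi (upper) and 21 dpi (lower), with a line at the ratio of each macrophage gene; genes beyond the axis limits are not drawn, and line heights carry no value. CHIL3 at -0.89 and F13A1 at -0.58 lie in the left tail at 7 dpi, and at 21 dpi the bulk of genes is shifted to a median of -0.42, with MS4A7, ADGRE1 and LYZ2 to its left and CHIL3 to its right.

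Upstream sequence is shown for the 4 genes past 1.3-fold at 7 dpi, all of which have a promoter entry in the RefSeq table of GRCm38.p6, so that motifs in them can be read. Entries were matched for 6 of the 8 genes, with 8 start sites, and there was none for ADGRE1 or FABP5. Each line gives the 250 bases before the start site, 5′ to 3′ on the gene's strand. Capitals mark matches on either strand to the letters of 5 motifs, in which N is any base. AGGAAGT is the ETS core that the macrophage factor PU.1 binds. The letters searched for AP-1 factors were TGANTCA, and those for STAT factors, of which STAT6 is one, were TTCNNNNGAA. For the TATA box the search used TATAAA. Factors of the C/EBP family, active in myeloid cells, were given TTGCNNAA. For F13A1 and MS4A7, which have 2 start sites each, the site with a match to the ETS or STAT letters is printed.
LYZ2 promoter, chr10:117282273-117282522, minus strand: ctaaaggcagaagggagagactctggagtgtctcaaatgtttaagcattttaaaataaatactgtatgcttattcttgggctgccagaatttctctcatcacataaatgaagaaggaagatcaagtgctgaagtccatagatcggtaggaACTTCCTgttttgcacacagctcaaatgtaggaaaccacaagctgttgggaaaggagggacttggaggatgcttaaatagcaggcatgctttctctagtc
CHIL3 promoter, chr3:106167565-106167814, minus strand: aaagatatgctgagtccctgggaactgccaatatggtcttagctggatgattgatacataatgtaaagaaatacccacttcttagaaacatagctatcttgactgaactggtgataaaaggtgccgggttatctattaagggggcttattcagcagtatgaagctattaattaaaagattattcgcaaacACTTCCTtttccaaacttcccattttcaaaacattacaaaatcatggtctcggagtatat
F13A1 promoter, chr13:37049214-37049463, minus strand: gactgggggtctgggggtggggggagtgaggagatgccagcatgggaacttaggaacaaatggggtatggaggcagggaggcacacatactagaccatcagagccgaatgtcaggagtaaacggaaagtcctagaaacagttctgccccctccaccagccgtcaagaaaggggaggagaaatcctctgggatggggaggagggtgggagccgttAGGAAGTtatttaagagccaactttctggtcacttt
MS4A7 promoter, chr19:11336147-11336396, minus strand: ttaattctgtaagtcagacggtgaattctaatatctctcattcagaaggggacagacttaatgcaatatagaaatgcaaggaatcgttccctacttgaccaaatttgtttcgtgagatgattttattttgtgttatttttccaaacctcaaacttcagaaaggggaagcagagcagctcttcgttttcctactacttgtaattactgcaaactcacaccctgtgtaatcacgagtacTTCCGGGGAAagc

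The capitals in LYZ2, CHIL3 and F13A1 are the ETS letters, which lie at -100 to -94 in LYZ2, -60 to -54 in CHIL3 and -36 to -30 in F13A1, counted back from the start site. In MS4A7 they are the STAT letters at -13 to -4. MRC1 also held the ETS letters, at -211 to -205. They were thus in 4 of the 8 start sites, which belong to 6 of the 8 genes, beside 7.69% of 32851 promoters of the same length. The STAT letters were in 5.85% of all promoters. CD68 had the AP-1 letters at -149 to -143 and at -24 to -18 and the C/EBP letters at -43 to -36, and the other start site of MS4A7 had the AP-1 letters at -81 to -75. These are in 6.75% and 9.56% of promoters. TATAAA, in 12.4% of promoters, was in none of the 8. No match overlapped one to another motif. Any tie between these letters and the genotype ratios was not tested, and a match is a description of the sequence and not a site in use.

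At 21 dpi the genotypes differed in most genes, so the values of the macrophage genes are given against that shift. Among genes whose mean FPKM reached 1, the median log2 ratio stood at -0.42, and 93.8% of listed genes were lower in ApoE3. The median gene was at 26.9 FPKM in ApoE3 and 36.8 in ApoE4, compared to 33.0 in both genotypes at 7 dpi. A centred ratio is the log2 ratio minus this median.

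LYZ2, ADGRE1 and MS4A7 were higher in ApoE4 at 21 dpi by more than the shift, CHIL3 was higher in ApoE3 and FABP5 moved with the bulk of genes. LYZ2 was at 212 FPKM in ApoE3 and 426 in ApoE4. ADGRE1 was at 10.8 FPKM in ApoE3 and 25.8 in ApoE4, and MS4A7 at 9.57 and 28.6. These 3 genes were all at least 2.005-fold higher in ApoE4, with log2 ratios of -1.003 for LYZ2, -1.18 for ADGRE1 and -1.49 for MS4A7. Their centred ratios were -0.58, -0.76 and -1.06. Of 11470 genes, 114 had a lower ratio than MS4A7, 250 than ADGRE1 and 424 than LYZ2.

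At 21 dpi CHIL3 was at 1.14 FPKM in ApoE3 and 0.443 in ApoE4, a log2 ratio of 0.57 and a centred ratio of 0.99. Both values lie at the bottom of the table, where only 3.0% of genes in ApoE3 and 0.27% in ApoE4 were lower, so this ratio rests on very little RNA. With a pseudocount of 0.1 in place of 1 it was 1.19. FABP5 was at 277 FPKM in ApoE3 and 343 in ApoE4. Its log2 ratio of -0.31 turned to 0.12 once centred, so its direction depended on the shift.

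Over the 5 genes, 3 passed 1.3-fold in ApoE4 at 21 dpi, beside 58.9% of all listed genes, and that count by itself sets them apart in no way. Centring left 3 of 5 past 1.3-fold in ApoE4, again LYZ2, ADGRE1 and MS4A7, beside 8.06% of genes. In ApoE3, CHIL3 alone passed, beside 2.01% of genes as deposited and 7.46% once centred. The median log2 ratio of the 5 was -1.003, or -0.58 centred, and that of all listed genes was -0.42. ADGRE1 was level between genotypes at 7 dpi and lower in ApoE3 at 21 dpi, and whether its ratio differed between the times was not tested.

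Markers of other tissues also differed by genotype at 21 dpi. Of 20 liver genes, 12 were listed and 11 passed 1.3-fold in ApoE4, with a summed level of 18.7 FPKM in ApoE3 and 158 in ApoE4. The most abundant was APOA2, at 5.38 and 59.2 FPKM, and MUP3 was listed at 0 in ApoE3. Of 15 skeletal muscle genes, 9 were listed and all 9 passed in ApoE4, with sums of 35.1 and 737 FPKM, led by TNNT3 at 22.5 and 515 FPKM, and with MYH4 listed at 0 in ApoE3. Genes of peripheral nerve went the other way. Of 11 Schwann cell genes, 10 were listed, 7 passed in ApoE3 and 2 in ApoE4, with DRP2 at 294 FPKM in ApoE3 and 109 in ApoE4. Their sums were 3679 and 3058 FPKM, led by PMP22, which like MAL, SOX10 and S100B of this list is also made in the cord itself. Of 12 sensory ganglion genes, 11 were listed, 8 passed in ApoE3 and 2 in ApoE4, with SCN10A at 20.1 and 0.153 FPKM. Their sums were 954 and 1129 FPKM, led by CALCA, and TRPV1 and MRGPRD were listed at 0 in ApoE4. CALCA had a log2 ratio of -0.24, which turned to 0.18 once centred. As deposited, 58.9% of all listed genes passed in ApoE4 and 2.01% in ApoE3. After centring, 11 liver and 9 muscle genes still passed in ApoE4, beside 8.06% of genes. In ApoE3, beside 7.46% of genes, 7 Schwann cell and 8 sensory ganglion genes passed after centring, against 0 and 1 in ApoE4. Transcripts of these tissues thus differed between the 21 dpi groups along with genotype, and their part in the ratios of LYZ2, ADGRE1, MS4A7, CHIL3 and FABP5 was not tested. Other tissues also differed at 7 dpi, in part in the opposite direction. Of 9 listed muscle genes 7 were higher in ApoE3, 3 passed there and 1 in ApoE4, with a median log2 ratio of 0.28, and TNNT3 was at 45.7 and 26.5 FPKM. Of 6 listed sensory ganglion genes 5 were higher in ApoE3 and 2 passed there, with a median of 0.31. Of 7 listed Schwann cell genes 1 passed in each genotype, with a median of 0.04. Of the liver genes only TRF and ASS1 were listed, with a median of 0.0015.

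From 7 to 21 dpi the 5 macrophage genes listed at both times were lower in either genotype, with ratios that no more than 6.76% of genes went below. The values of the 2 times come from separately made comparisons, so these ratios also carry any difference in scale between them. LYZ2 went from 4522 to 212 FPKM in ApoE3 and from 6076 to 426 in ApoE4. MS4A7 went from 172 to 9.57 FPKM in ApoE3 and from 231 to 28.6 in ApoE4, and ADGRE1 from 111 to 10.8 and from 109.6 to 25.8. The log2 ratio of 21 to 7 dpi was -4.41 in ApoE3 and -3.83 in ApoE4 for LYZ2, -4.03 and -2.97 for MS4A7, and -3.24 and -2.04 for ADGRE1. Each of these 3 was thus lower at 21 dpi in both genotypes, by the larger factor in ApoE3. In ApoE3, only H19, COL1A1, COL3A1 and ACP5, named after their values were seen, had a lower ratio than LYZ2 among 10876 genes. Centring on the median of genes, which was 0.09 in ApoE3 and 0.53 in ApoE4, brought LYZ2 to -4.50 and -4.36.

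CHIL3 and FABP5 were lower at 21 dpi as well. CHIL3 went from 5.30 to 1.14 FPKM in ApoE3 and from 10.6 to 0.443 in ApoE4, log2 ratios of -1.56 and -3.01. With a pseudocount of 0.1 these were -2.13 and -4.31, so the size of the factor for CHIL3 depended on it. CHIL3 thus had the larger factor in ApoE4, the genotype in which it was higher at 7 dpi. FABP5 went from 571 to 277 FPKM and from 613 to 343, log2 ratios of -1.04 in ApoE3 and -0.84 in ApoE4, the smallest of the 5. Once centred they were -1.13 and -1.36, so which genotype had the larger factor for FABP5 depended on the shift. FABP5 thereby passed LYZ2 as the most abundant of the 5 in ApoE3 at 21 dpi, while LYZ2 remained the most abundant in ApoE4.

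All 5 genes were lower at 21 dpi by at least 1.3-fold in ApoE3, beside 23.6% of genes listed at both times, and in ApoE4, beside 10.9%. None of the 5 was higher at 21 dpi by that factor, beside 31.3% of genes in ApoE3 and 59% in ApoE4. After centring, the 5 genes still passed in both genotypes, beside 27.7% of genes lower and 26.6% higher in ApoE3, and 28.6% lower and 26.1% higher in ApoE4. On the FPKM plus 1 scale, LYZ2, MS4A7 and ADGRE1 were at least 4-fold lower in both genotypes, beside 1.31% of genes in ApoE3 and 1.01% in ApoE4. CHIL3 was so in ApoE4, and in ApoE3 it fell short only because 1 is added. The median log2 ratio of the 5 was -3.24 in ApoE3 and -2.97 in ApoE4, and that of all genes was 0.09 and 0.53. Other lists were lower at 21 dpi as well. Of all genes listed at both times, 44.1% were lower at 21 dpi in ApoE3 and 21.7% in ApoE4. The median was -2.05 in ApoE3 and -2.68 in ApoE4 for fibroblast and pericyte genes, with 9 and 10 of 10 lower, and -1.67 and -1.77 for cell cycle genes, with 6 of 6 lower. Monocyte and recruitment genes had medians of -1.39 and -1.08. The 4 border-associated macrophage genes listed at both times were all lower, with medians of -2.76 in ApoE3 and -3.14 in ApoE4. PF4, FOLR2 and STAB1 had the larger factor in ApoE4, unlike LYZ2, MS4A7 and ADGRE1. CBR2 had the larger factor in ApoE3, with log2 ratios of -0.87 in ApoE3 and -0.16 in ApoE4. Neuronal genes were higher at 21 dpi, 9 of 9 in both genotypes, where most genes were higher in ApoE4. Their medians were 0.73 in ApoE3 and 1.66 in ApoE4, or 0.64 and 1.13 once centred. Muscle genes had medians of -0.94 in ApoE3 and 3.48 in ApoE4.

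**Figure D3:**
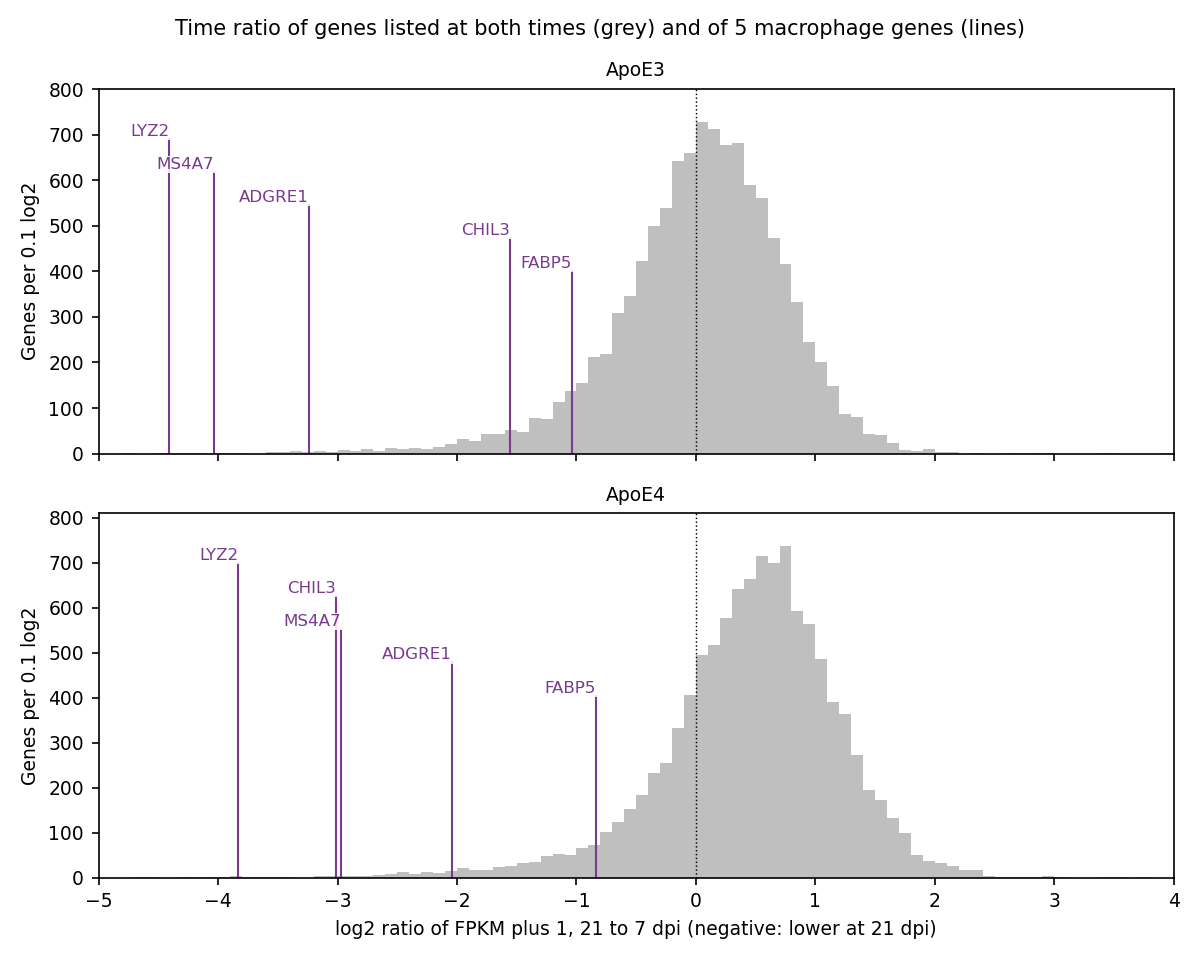
Number of genes per 0.1 log2 (grey bars) by log2 ratio of 21 to 7 dpi in ApoE3 (upper) and ApoE4 (lower), with a line at each macrophage gene listed at both times; genes beyond the axis limits are not drawn, and line heights carry no value. LYZ2 lies at -4.41 and -3.83, and FABP5, at -1.04 and -0.84, lies nearest to the bulk of genes.

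Close relatives of the 8 genes followed them to differing degrees. LYZ1, the neighbour of LYZ2 on the chromosome and its near copy, was at 74.9 FPKM at 7 dpi in ApoE3 and 102.6 in ApoE4, and at 3.80 and 6.88 at 21 dpi. LYZ2 was thus 60.4, 59.2, 55.8 and 61.9 times as high as LYZ1 in these groups, a narrow range over a wide change in level. Of the 100-base words of LYZ2 transcripts in GENCODE vM21, 1.97% also occur in LYZ1. This is a small part of LYZ2. Because LYZ1 was so much lower, reads of LYZ2 in these words could make up a large part of its value. How such reads were assigned is unknown, so the steady ratio of LYZ2 to LYZ1 may not show a separate gene that follows LYZ2. The share of such words was 5.24% for CHIL3, which is uncertain to that extent. CHIL3 shares words with 2 genes, most of them with CHIL4 at 3.63%. For FABP5 the share was 9.009%, with words in 2 genes, of which the pseudogene GM6166 had the most at 9.009%. The share was 0 for MRC1, CD68, ADGRE1, F13A1 and MS4A7.

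CHIL3's relative CHIL1, made by astrocytes among other cells, went the opposite way at both times. At 7 dpi CHIL1 was at 241 FPKM in ApoE3 and 175 in ApoE4, where CHIL3 was higher in ApoE4, and at 199 and 416 FPKM at 21 dpi, where CHIL3 was higher in ApoE3. FABP4, a relative of FABP5 typical of fat cells and macrophages, was at 41.6 and 51.2 FPKM at 7 dpi and at 3.29 and 6.92 at 21 dpi. FABP4 thus differed between the times far more than FABP5, and FABP5 came to 13.7 times FABP4 in ApoE3 and 11.96 in ApoE4 at 7 dpi, and to 84.2 and 49.6 at 21 dpi. Among the gene family of MS4A7, MS4A6D was at 32.8 and 40.3 FPKM at 7 dpi and at 3.74 and 13.8 at 21 dpi, a pattern like that of MS4A7. MS4A4C differed from MS4A7 at 7 dpi, at 12.6 FPKM in ApoE3 and 8.74 in ApoE4. MRC2, the relative of MRC1 found in fibroblasts, was at 16.6 and 18.8 FPKM at 7 dpi, above MRC1 in both genotypes. In all, 16 of 26 relatives were listed at 7 dpi, of which 12 were higher in ApoE4, with a median log2 ratio of -0.15, while 4 passed 1.3-fold in ApoE3 and 2 in ApoE4. At 21 dpi 13 were listed and 12 were higher in ApoE4, beside 93.8% of all listed genes. All 12 passed in ApoE4, or 6 once centred, with a median centred ratio of -0.36, and PMP2, also a Schwann cell gene, passed in ApoE3.

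Genes of the IL-4 and IL-13 pathway around CHIL3 and MRC1 were mostly higher in ApoE4 at 7 dpi. IL4 and IL13 were not listed. The receptor chain IL4RA was at 27.3 FPKM in ApoE3 and 33.2 in ApoE4, and STAT6 at 30.8 and 32.9, neither past 1.3-fold. Of the 30 genes in this list, 20 were listed at 7 dpi and 16 were higher in ApoE4, with a median of -0.19. Past 1.3-fold were 7 in ApoE4, beside 4.76% of all listed genes, and none in ApoE3. The scavenger receptor STAB1, at 329 FPKM in ApoE3 and 559 in ApoE4, and the transglutaminase TGM2, at 32.5 and 51.5 FPKM, had the largest of these, both short of the ratio of CHIL3. At 21 dpi 18 were listed, and the median of -0.40 turned to 0.02 once centred, unlike that of the macrophage genes. Of 17 genes that use arginine or make polyamines 14 were listed at 7 dpi and none passed 1.3-fold in either direction, with a median log2 ratio of 0.01. NOS2, which makes nitric oxide, was not listed at either time. At 21 dpi 11 were listed and none passed once centred.

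Classical activation genes had no single direction at 7 dpi. CXCL10, an interferon-induced chemokine, was at 34.2 FPKM in ApoE3 and 13.04 in ApoE4, and IRF5 was the most abundant, at 182 and 217. Of 19 genes 12 were listed, 1 passed 1.3-fold in ApoE4 and 2 in ApoE3, and their median was -0.03. At 21 dpi all 8 listed were higher in ApoE4, beside 93.8% of all listed genes. Their median centred ratio was -0.37, and 3 passed in ApoE4 once centred.

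Genes of lipid-laden macrophages went with LYZ2, CD68 and F13A1. At 7 dpi, 16 of 18 were listed and 15 were higher in ApoE4, 4 of them past 1.3-fold, with a median log2 ratio of -0.29. The fatty acid receptor CD36 was at 1292 FPKM in ApoE3 and 1805 in ApoE4, and PLIN2, which coats lipid droplets, at 800.4 and 1120 FPKM, log2 ratios of -0.48 for both, close to the -0.43 of LYZ2. At 21 dpi, 13 were listed with a median centred ratio of -0.25, smaller in size than the -0.58 of LYZ2, and 4 passed in ApoE4 once centred. Their median ratio of 21 to 7 dpi was -2.58 in ApoE3 and -2.11 in ApoE4. All 12 were lower, as the 5 macrophage genes were, beside 44.1% of all genes in ApoE3 and 21.7% in ApoE4. Monocyte and recruitment genes were higher in ApoE4 in 15 of 17 listed of 22 at 7 dpi, like 6 of the 8 macrophage genes, with a median of -0.24. Past 1.3-fold were 5 in ApoE4 and 1 in ApoE3, CCL12, which at 9.48 and 4.04 FPKM had the largest ratio of the list, 1.06. PU.1, encoded by SPI1, was at 92.9 FPKM in ApoE3 and 113 in ApoE4. Their median centred ratio at 21 dpi was -0.20. With F13A1, MS4A7 and MRC1 left out, 6 of 9 border-associated macrophage genes were listed at 7 dpi and 5 were higher in ApoE4, 2 of them past 1.3-fold, among them PF4 at 12.4 and 21.1 FPKM. At 21 dpi their median of -0.36 turned to 0.07 once centred, whereas MS4A7 kept a centred ratio of -1.06.

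Microglial genes, which share LYZ2, CD68 and ADGRE1 with macrophages, showed a smaller difference at 7 dpi. Of 11 genes 6 were listed, 3 of them higher in ApoE4 and 1 past 1.3-fold, with a median of -0.02 beside the -0.40 of the 8 macrophage genes. From 7 to 21 dpi the 5 listed at both times had a median of -0.63 in ApoE3 and -0.16 in ApoE4, against -3.24 and -2.97 for the macrophage genes. SIGLECH, a microglial surface protein, was at 112 FPKM at 7 dpi in ApoE3 and 104 in ApoE4, and at 123 and 237 at 21 dpi. It was the only 1 of the 5 not lower at 21 dpi in ApoE3, where the other 4 were all lower by at least 1.3-fold, FCRLS most at a log2 ratio of -2.07. In ApoE4, 3 of the 5 were lower and 2 of them passed. Of all genes listed at both times, 23.6% were lower by 1.3-fold in ApoE3 and 10.9% in ApoE4. At 21 dpi the 7 listed microglial genes were all higher in ApoE4, as were 93.8% of all listed genes. Their median centred ratio was -0.24, and 2 passed in ApoE4 once centred, beside 8.06% of genes.

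Genes of other cell types also differed at 7 dpi. All 10 fibroblast and pericyte genes were higher in ApoE4, 3 of them past 1.3-fold, with sums of 975 FPKM in ApoE3 and 1261 in ApoE4, led by COL1A1. All 10 cell cycle genes were also higher in ApoE4, 5 of them past 1.3-fold, with sums of 202 and 270.5 FPKM, led by TOP2A. All 11 listed neuronal genes were higher in ApoE3, 2 of them past 1.3-fold, with sums of 6095 and 4800 FPKM, led by SNAP25. Whether the ratios of CHIL3, F13A1, LYZ2 and MS4A7 follow those of these lists was not tested. Among 14 neutrophil genes 7 were listed and 4 were higher in ApoE3, where 3 passed, against 1 in ApoE4, and the median was 0.34. Higher in ApoE3 were S100A8, S100A9, LTF and LCN2, and higher in ApoE4 were MMP8, MMP9 and CSF3R, so the list had no single direction. Its sums of 540 FPKM in ApoE3 and 627 in ApoE4 were mostly CSF3R, at 485 and 589 FPKM. Astrocyte, oligodendrocyte, endothelial and erythrocyte lists had median ratios of 0.03, 0.11, -0.07 and 0.04 at 7 dpi, all smaller in size than that of the 8. Of 12 T and B cell genes CD79B alone was listed at 7 dpi, at 2.46 and 3.28 FPKM. At 21 dpi the centred medians were -0.13 for neuronal, -0.24 for astrocyte, -0.12 for oligodendrocyte, -0.33 for neutrophil, -0.28 for T and B cell and -0.15 for cell cycle genes, and 0.38 for fibroblast and pericyte, 0.10 for endothelial and 0.14 for erythrocyte genes, beside -0.58 for the 5 macrophage genes. LYZ2, ADGRE1 and MS4A7 were thus below, and CHIL3 above, the median of each of these lists.

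**Figure D4:**
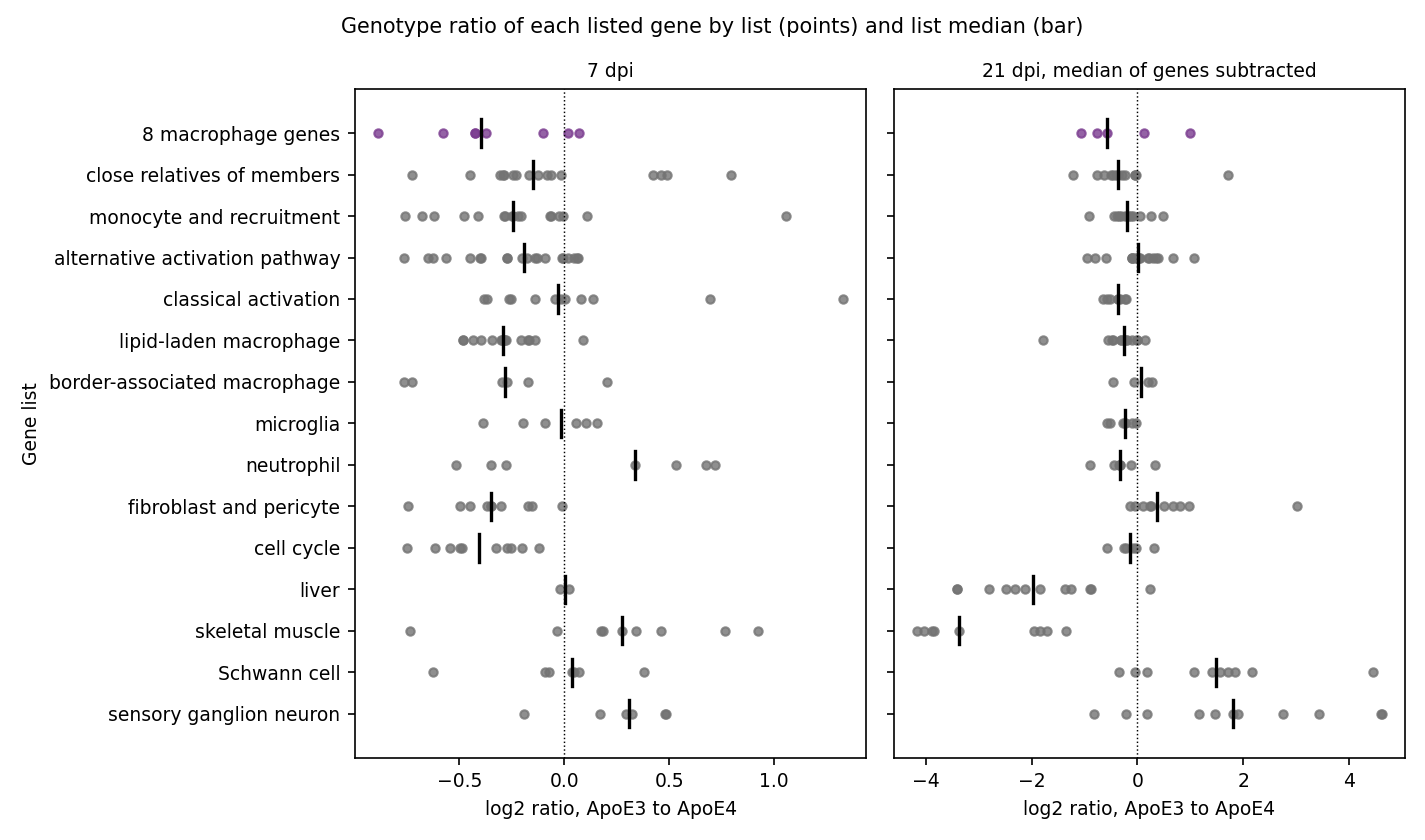
Log2 ratio of ApoE3 to ApoE4 for each listed gene (points) of the 8 macrophage genes and of 14 other lists, with the list median (bar), at 7 dpi (left) and at 21 dpi after the median of genes was subtracted (right; the scales differ). At 7 dpi the median of the 8 lies at -0.40, beside -0.41 for cell cycle and -0.35 for fibroblast and pericyte genes, and at 21 dpi skeletal muscle genes lie far to the left and Schwann cell and sensory ganglion genes to the right.

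The genes most like each macrophage gene over the 4 groups were sought among 10861 genes, by the Euclidean distance between log2 profiles of FPKM plus 1 centred on their own mean. For LYZ2 they were ATP6V0D2, LYZ1, GPNMB, ACP5 and MSR1, at distances of 0.15 to 0.48, where the median gene was at 4.46 from LYZ2. ATP6V0D2, a subunit of the lysosomal proton pump, was at 52.8, 65.6, 1.62 and 3.66 FPKM in the order ApoE3 and ApoE4 at 7 dpi, then ApoE3 and ApoE4 at 21 dpi. LYZ2 in the same order was at 4522, 6076, 212 and 426 FPKM. For ADGRE1 they were CD300LB, HTR2B, MS4A6C, AI427809 and IGF1, at 0.18 to 0.34. For MS4A7 the nearest were farther off, at 0.59 to 0.65, namely WFDC17, MMP12, HTR2B, LYZ1 and FABP4. Nearest to CHIL3 were FBLN2, LUM, LOX, MMP2 and IQGAP2, at 0.34 to 0.61. LUM, a proteoglycan of the matrix, was at 8.94, 13.02, 1.44 and 0.675 FPKM in the same order of groups, and CHIL3 at 5.30, 10.6, 1.14 and 0.443. For FABP5 many genes were near, with SELENOP, PLEKHM1, WASF2, TMEM123 and ARSK at 0.05 to 0.06 and the median gene at 1.29. With 4 values per gene such likeness is a description, and the profile of LYZ1 may in part hold reads of LYZ2.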

How the data were processed

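Segments of injured cord were sequenced by the authors after TRIzol extraction and TruSeq RNA Sample Prep Kit v2. Before alignment they removed reads at random so that all libraries had the same number. In 1 replicate, whose group their text does not name, a smaller share of reads aligned than in the others. The submitters' processing notes name STAR 2.5.4b, Bowtie2 2.1.10, SAMtools 0.1.7 and Cuffdiff 1.3.0; the genome build is not given in the sources used here. The values deposited are FPKM with 1 added, in which the authors pooled the mice of a group into 1 value per gene, and 1 was subtracted to give FPKM. Their table also holds the authors' p-value, q-value, fold change, log2 fold change and a significance mark, and a second table lists their differentially expressed genes. None of these entered a value given here. The fold change, which is the first value of a row over the second, was used only in reading which value is ApoE3. Symbols on 2 rows of a time point (2 at each) were left out.

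Log2 ratios used a pseudocount of 1. No test was run, since there was 1 value per group; depth per gene is unknown. A call means at least 1.3-fold on the FPKM plus 1 scale. The 8 genes and the 21 other gene lists were chosen with earlier results of these data known. A few genes of these lists are not reported here and enter no count, median or sum of a list. Named genes were the 8, their listed relatives, up to 3 genes per list by mean FPKM and up to 3 by absolute ratio in each comparison, and the 5 nearest profiles of each gene among genes whose mean FPKM reached 1. Other genes of these lists are named where a count or pathway needed them, after seeing their values. Alternatives tried were a pseudocount of 0.1 or 0.01, centring on the median of genes whose mean FPKM reached 1, scaling to a shared upper quartile, a minimum mean FPKM of 1, and folds of 1.5 and 2.

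Neighbouring genes and promoters came from RefSeq (GRCm38.p6), transcripts from GENCODE vM21. Python 3.11.15, numpy 2.4.6, pandas 2.3.3 and matplotlib 3.10.9 were used, and the ratio and call were tested on simulated data.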

Additional observations from a re-analysis of the deposited data

Results flagged for a closer look

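The genotype ratios of CHIL3 and ADGRE1 had opposite signs at the 2 time points. For CHIL3 the log2 ratio of ApoE3 to ApoE4 was -0.89 at 7 dpi and 0.57 at 21 dpi, a difference of 1.45, or 1.88 after centring. The 21 dpi values of CHIL3 were 1.14 and 0.443 FPKM. For ADGRE1 the ratio was 0.02 at 7 dpi, well within 1.3-fold, and -1.18 at 21 dpi, a difference of -1.20, or -0.78 after centring. Neither difference was tested, since each group has 1 value.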

How the results depend on the processing

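The median ratio of the 8 macrophage genes at 7 dpi and the median ratio of 21 to 7 dpi in ApoE3 kept their direction and moved by less than the log2 of 1.3 under both pseudocounts, centring, upper quartile scaling and the minimum mean FPKM. At 21 dpi the median ratio of ApoE3 to ApoE4 was -1.003 as deposited, -0.58 centred and -0.59 with upper quartile scaling. The median ratio of 21 to 7 dpi in ApoE4 was -2.97 as deposited and -3.50 centred. These shifts follow from what the scalings subtract. At 7 dpi, 4 genes passed 1.3-fold in ApoE4, 1 passed 1.5-fold and 0 passed 2-fold, where 1.51% and 0.255% of all genes passed; a higher minimum can only lower the count. No other count among the 8 genes moved by more than 1.5 times, whereas the share of all genes past 1.3-fold in ApoE4 at 21 dpi went from 58.9% to 8.06% with centring. Of 92 alternative ratios of single genes, 68 moved by less than the log2 of 1.3 and 24 by more, all 24 at 21 dpi or from 7 to 21 dpi, and none past 1.3-fold turned its direction. The ratio of FABP5 at 21 dpi, -0.31, lies within 1.3-fold and turned to 0.12 centred and 0.11 with upper quartile scaling. No paired analysis was possible because the table holds 1 pooled value per group. Depth per gene is unknown, and the low values of CHIL3 and MRC1 are the least certain.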
